A study of Drosophila melanogaster with 4 samples.

Results

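The Rhino (Rhi) peaks on the left arm of chromosome 2 of *Drosophila melanogaster* are described here, from its telomeric tip to the pericentromeric end. Every peak whose chromosome is chr2L in the UCSC dm3 build was taken, and the separate heterochromatic sequence chr2LHet was left out. This gave 121 of the 1066 peaks of the GFP_KD list and 81 of the 817 peaks of the *enok*_KD list.

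The peaks came from chromatin immunoprecipitation followed by sequencing (ChIP-seq) with an antibody against Rhi, and the question was where Rhi sits upon germline depletion of Enok. In both groups MTD-Gal4, a set of Gal4 transgenes with *otu* and *nos* sequences, each carried in 1 copy, expressed a short hairpin RNA from an attP2 insertion, against EGFP in the control (GFP_KD, P{VALIUM20-EGFP.shRNA.1}) and against *enok* in the knockdown (*enok*_KD, P{TRiP.HMS02634}). The knockdown was run at 29 °C, the adults were 2 to 3 days of age, and 90 pairs of ovaries went into a Rhi ChIP. These drivers act in the germline, and the somatic cells that ovaries also hold were not targeted. Each group had 1 input and 1 IP library. No difference below therefore has a replicate check, no p-value is given, and the intervals describe counting error or how peaks and bins scatter within a library. The files hold no expression values, so the depletion of *enok* itself was not measured in these samples.

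Rhi, also called HP1D, is the germline member of the HP1 family. Its chromodomain binds histone H3 that carries the H3K9me3 mark, and with its partners it licenses the transcription of dual-strand piRNA clusters, from which most germline piRNAs derive. In flies such clusters lie mainly in pericentromeric heterochromatin, which is rich in transposon fragments, and at subtelomeric repeats. Enok is an acetyltransferase of histone H3.

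To the nearest 100000, the inputs held 7700000 (GFP_KD) and 8200000 (*enok*_KD) uniquely mapped reads, and the IPs 8000000 (GFP_KD) and 6700000 (*enok*_KD). The depth ratio of the *enok*_KD to the GFP_KD IP was 0.830, and the lists differ in that respect wherever their peaks are counted. Fold enrichment below is the value the authors' files give for each peak, and the p score is the −log10 of its p-value. The control behind both is not stated in the sources used here.

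On 2L the GFP_KD peaks covered 64.1 kb and the *enok*_KD peaks 54.9 kb. The *enok*_KD list thus held 66.9% as many peaks and 85.7% of the length, whereas over all other chromosomes together it held 77.9% as many (945 and 736 peaks) and 90.8% of the length. Number and length did not follow each other on every arm. On 2R the number was 83.0% and the length 61.4%, on 3L 74.8% and 120%, on 3R 58.1% and 53.7%, and on X 46.1% and 58.1%. 2L was therefore an arm with fewer peaks and a length nearer to that of the control.

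Rhi peaks of GFP_KD sat at both ends of 2L and were rare between them, while those of *enok*_KD sat mainly at the pericentromeric end. In GFP_KD, 18 peaks lay in the first 1 Mb (14.9%), 10 in the interior (8.26%) and 93 from 20 Mb to the end (76.9%, Wilson 95% interval 68.6 to 83.5). In *enok*_KD the numbers were 2 (2.47%), 11 (13.6%) and 68 (84.0%, 74.5 to 90.4). At the tip, the *enok*_KD number was thus 11.1% and its covered length 8.52% of those in GFP_KD (6.48 kb and 0.552 kb). Of the 18 GFP_KD peaks there, 3 overlapped an *enok*_KD peak, where 49.1% did so over all chromosomes. The interior held 110% of the number and 96.3% of the length, and the proximal end 73.1% of the number and 94.2% of the length (52.7 kb and 49.7 kb). Of the 24 windows of 1 Mb, 12 held a peak in GFP_KD and 9 in *enok*_KD.

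**Figure D1:**
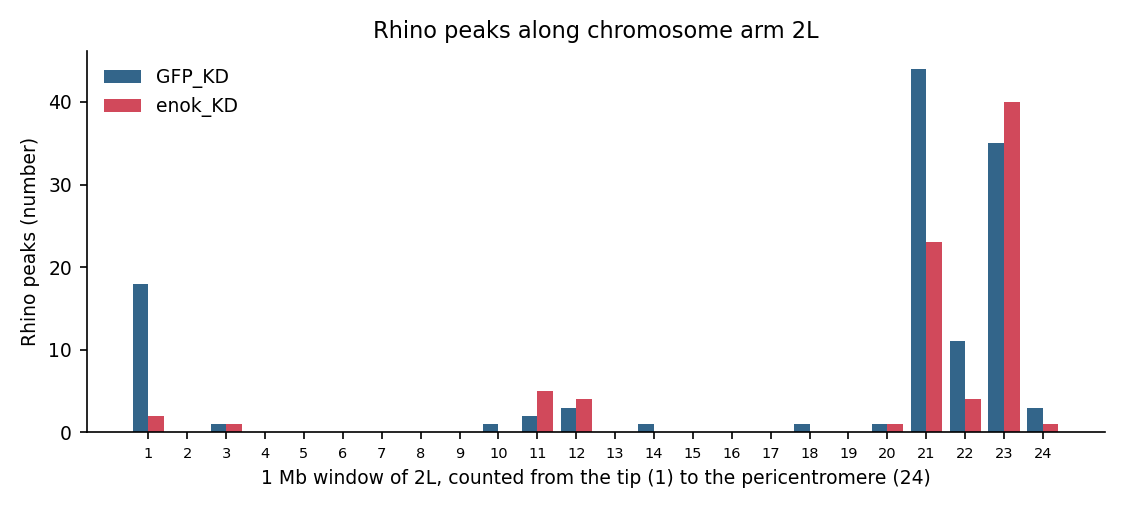
Number of Rhi peaks (vertical axis) in each 1 Mb window of 2L, counted from the tip (horizontal axis), in GFP_KD (blue) and *enok*_KD (red), with 1 library per group. The 1st window held 18 and 2 peaks, the 21st 44 and 23, the 22nd 11 and 4, and the 23rd 35 and 40.

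The windows that differed most were the 21st (44 GFP_KD peaks and 23 *enok*_KD peaks), the 1st (18 and 2) and the 22nd (11 and 4). In the 23rd window the order turned, with 35 peaks over 11.4 kb in GFP_KD and 40 peaks over 25.4 kb in *enok*_KD. The near-equal proximal length was therefore a sum of unlike stretches. To describe them, the peaks of both lists were joined within 20 kb into 29 loci, a step chosen after the values had been seen. Of these loci, 18 held peaks of both lists, 9 held GFP_KD peaks alone and 2 held *enok*_KD peaks alone. Both of the latter were single peaks, chr2L:10863681-10864115 (fold enrichment 3.08) and chr2L:22754950-22755148 (2.95). Loci were joined on 2L only, so whether these counts are particular to this arm was not tested. Peak by peak over all chromosomes, 50.9% in GFP_KD and 36.1% in *enok*_KD overlapped no peak of the other group. Within the 18 common loci, the covered length was greater in GFP_KD in 11 and in *enok*_KD in 7.

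**Figure D2:**
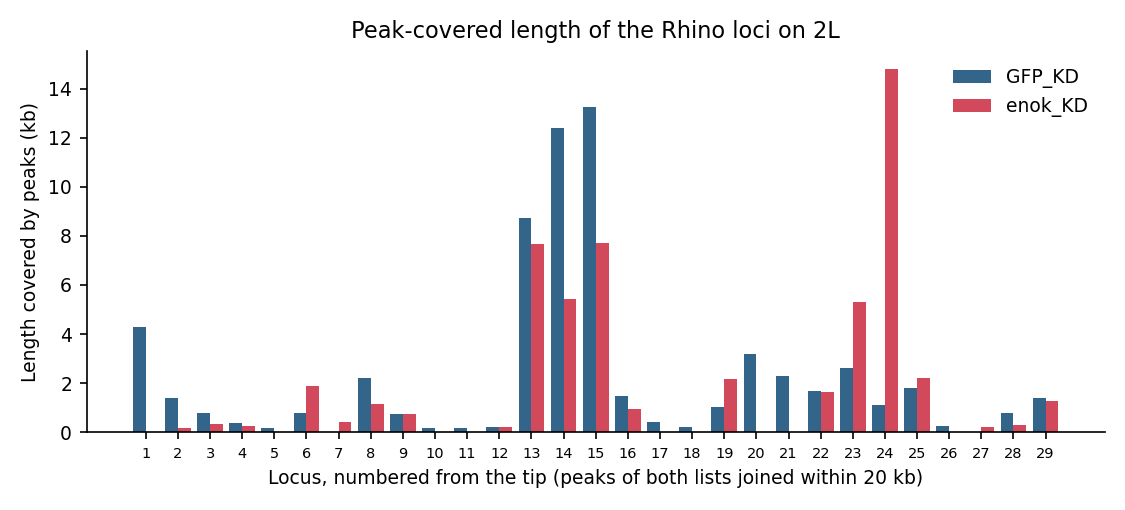
Length covered by peaks in kb (vertical axis) at each of the 29 loci numbered from the tip (horizontal axis), in GFP_KD (blue) and *enok*_KD (red). Locus 1 is the tip array with 4.29 kb and none, loci 14 and 15 have 12.4 and 13.3 kb in GFP_KD and 5.41 and 7.73 kb in *enok*_KD, and locus 24 has 1.10 and 14.8 kb.

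At the tip, the GFP_KD library showed an evenly stepped row of Rhi peaks that the *enok*_KD list lacked altogether. It comprised 13 peaks between chr2L:255 and chr2L:6687, where subtelomeric satellite arrays are known as piRNA sources, and no *enok*_KD peak lay in the first 10 kb. The first 11 summits were separated by 458 ± 7.79 bp (SD over 10 steps, range 446 to 476). The steps to the 12th and 13th summit were 806 and 799 bp. Past the first 1 Mb, neighbouring GFP_KD summits closer than 1 kb were, in comparison, 631 ± 194 bp apart (SD over 25 steps, range 297 to 970).

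**Figure D3:**
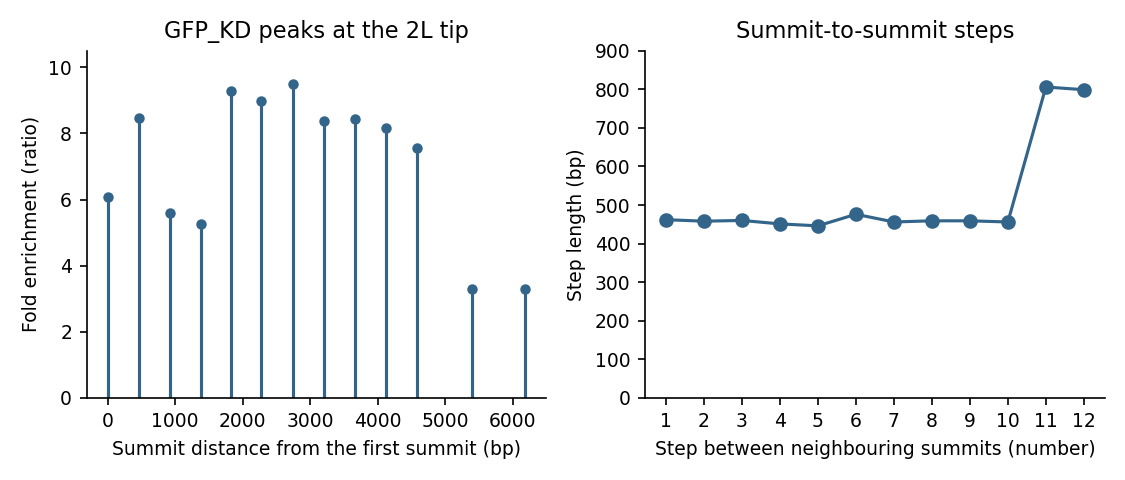
Left, fold enrichment (vertical axis) of the 13 GFP_KD peaks at the tip against the distance of each summit from the first summit in bp (horizontal axis). Right, length of each of the 12 steps between neighbouring summits in bp. The first 10 steps lie between 446 and 476 bp, and the last 2 are 806 and 799 bp.

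These were not weak peaks. Fold enrichment of the first 11 ranged from 5.25 to 9.50 with a median of 8.37, and their p scores from 31.5 to 60.04. The 12th and 13th stood lower, both at 3.28. The 3 strongest GFP_KD peaks of the arm without an *enok*_KD partner all lay here, at chr2L:3008-3331 (9.50), chr2L:2092-2391 (9.29) and chr2L:2555-2873 (8.99). The arm's first peak, chr2L:255-587, had a fold enrichment of 6.07. Lengths ran from 215 to 586 bp with a median of 324 bp, and the gaps between the first 11 were 106 to 171 bp, so that peaks filled most of the row. The array made up 10.7% of the GFP_KD peaks on 2L. Without it, the *enok*_KD number was 75% of the GFP_KD number (108 peaks).

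For the last part of the tip array, the difference was also read in bins, from the same libraries but without the peak caller. The deposited tables give reads scaled to the uniquely mapped reads of each library (RPM) in 1 kb bins of Rhi-dependent source loci, and 3 bins of cluster 33 lie at the tip. They run from chr2L:5001 to 8000, so most of the row, including its 3 strongest peaks, had no bin. In the bin from chr2L:5001, the IP was 37.9 RPM in GFP_KD and 11.2 in *enok*_KD, with inputs of 5.51 and 5.93. In the next bin the IP was 14.3 and 5.71 RPM (inputs 1.94 and 3.05), and in the last 15.1 and 7.06 (inputs 7.62 and 7.08). Occupancy, the log2 of IP over input, changed by −1.86 (counting SE 0.36), −1.98 (SE 0.54) and −0.99. All 3 bins were lower in *enok*_KD. The input differed by 0.11, 0.65 and −0.11 on the same scale, and the IP alone by −1.76, −1.33 and −1.09. The third bin, from chr2L:7001, lies past the last peak of the array and holds no peak of either list. The other peaks of the first 1 Mb were fewer and weaker. The next GFP_KD peak started at chr2L:484295, close to the first *enok*_KD peak of the arm, chr2L:484369-484561, whose fold enrichment was 3.04. Around the peak chr2L:770557-770913, 3 GFP_KD peaks covered 0.768 kb and 1 *enok*_KD peak, overlapping 2 of them, covered 0.359 kb.

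The interior was nearly empty in both lists. The widest gap ran from chr2L:2317700 to 9902230 in GFP_KD (7.58 Mb) and from chr2L:2317652 to 10138953 in *enok*_KD (7.82 Mb). Next came 13600079 to 17150122 (3.55 Mb) and 17150282 to 19363704 (2.21 Mb) in GFP_KD, and 11899297 to 19363684 (7.46 Mb) and 771125 to 2317404 (1.55 Mb) in *enok*_KD. The second *enok*_KD gap contains 2 single GFP_KD peaks, at 13599900 (fold enrichment 5.12) and 17150122 (3.79), which had no partner. Among the interior peaks, 6 of 10 of the control and 7 of 11 of the knockdown touched a peak of the other list, where 49.1% and 63.9% did so over all chromosomes.

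Interior peaks differed in either direction. The strongest, chr2L:11315332-11317562, had a fold enrichment of 10.3 over 2231 bp in GFP_KD and was split into 2 *enok*_KD peaks at 4.06 and 3.67. This was the lowest ratio of any overlapping pair on the arm (0.392). In contrast, chr2L:11898147-11898640 had 2.31 in GFP_KD and a partner at 4.62 in *enok*_KD, a ratio of 2.00. At chr2L:10138953-10143172, 2 GFP_KD peaks covering 0.799 kb faced 4 *enok*_KD peaks covering 1.88 kb.

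Just past 20 Mb lay the region with the most GFP_KD peaks and the most GFP_KD covered length of the arm, which holds clusters 27 and 5. From chr2L:20103785 to 20223080, GFP_KD had 41 peaks over 34.4 kb, 53.6% of its 2L length, and *enok*_KD had 21 peaks over 20.8 kb, 37.9% of its length. All 21 *enok*_KD peaks overlapped a GFP_KD peak (63.9% over all chromosomes). Of the 41 GFP_KD peaks, 16 overlapped an *enok*_KD peak (49.1% over all chromosomes). The *enok*_KD peaks here were thus a subset by position, and none appeared at a place without a GFP_KD peak.

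The region did not change evenly. Around cluster 27 (chr2L:20103785-20117068), 9 GFP_KD peaks covered 8.71 kb and 6 *enok*_KD peaks 7.66 kb. The longest peak of both lists was here, 5498 bp in GFP_KD (chr2L:20104952-20110449, fold enrichment 6.37) and 5824 bp in *enok*_KD (chr2L:20104635-20110458, 5.05). Between clusters 27 and 5, 6 GFP_KD peaks spanned chr2L:20141814-20148040 and covered 3.27 kb, with fold enrichments of 2.34 to 7.27, and no *enok*_KD peak was called. Directly after them, the large peak at the start of cluster 5 had a fold enrichment of 11.6 in GFP_KD (chr2L:20148393-20152847) and 11.9 in *enok*_KD (chr2L:20148461-20152791), with lengths of 4455 and 4331 bp. The 1 kb bins under it were lower in *enok*_KD all the same. In the bins from chr2L:20149001, 20150001, 20151001 and 20152001, the occupancy against input changed by −1.12, −0.52, −0.31 and −0.49, each beyond its counting error. The shorter bin from chr2L:20148259, at the start of the peak, changed by −0.37 (SE 0.31), within its counting error. In the middle of the cluster, from chr2L:20164302 to 20176685, 11 GFP_KD peaks over 4.68 kb faced 3 *enok*_KD peaks over 1.08 kb. Towards its end, from chr2L:20198157 to 20223080, 14 peaks over 13.3 kb faced 11 peaks over 7.73 kb.

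That last stretch held the strongest GFP_KD peak of the arm, chr2L:20206254-20208908, at 13.1 with a p score of 98.7. Its strongest *enok*_KD partner, chr2L:20206322-20207991, had 9.87. The 3623 bp GFP_KD peak chr2L:20215025-20218647 (8.30) was covered by 3 shorter *enok*_KD peaks. Among the overlapping pairs, chr2L:20203782-20204528 went from 6.86 to 3.46 (ratio 0.505) and chr2L:20172089-20172605 from 8.30 to 4.26 (0.513), the lowest ratios on the arm after the interior pair. In cluster 5, 9 of 10 pairs were lower in *enok*_KD (median ratio 0.72, range 0.505 to 1.02), and in cluster 27 2 of 6 (median 1.03).

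Over the 35 bins of cluster 5, which the tables class as Enok-bound, the median of occupancy was 3.11 in the control and 2.62 upon knockdown. The change had a median of −0.44 (95% interval of the median −0.74 to −0.31), and 28 of 35 bins were lower. Beyond their counting error, 15 bins fell and none rose, where 19.7% of all 2363 bins of the tables fell and 17.5% rose. The input moved by −0.08. A bin with few reads, from chr2L:20202001, had the most negative change in cluster 5 among bins at or above the median occupancy of the arm, with an IP of 16.7 and 8.16 RPM and an input of 1.75 and 2.69 (−1.65, SE 0.55). A change of similar size was found in a bin with more reads, from chr2L:20176001, where the IP was 153 and 97.5 RPM and the input 23.5 and 46.7 (change −1.64, SE 0.15). In that bin the input was higher by 0.99 on the log2 scale and the IP alone changed by −0.65. Over the 15 bins of cluster 27 the occupancy was 2.23 and 2.05, and the interval of the median change (−0.11, −0.55 to 0.18) contained no change. Of these bins, 4 fell (26.7%, against 19.7% over all bins) and 1 rose (6.67%, against 17.5%).

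Farther in, around 21 and 22 Mb, Rhi peaks formed small separate loci, several of which were found in GFP_KD alone. Altogether 23 GFP_KD peaks covered 10.4 kb between chr2L:20976946 and 22272713, and 8 *enok*_KD peaks covered 4.78 kb. A group of 6 GFP_KD peaks at chr2L:21798210-21804982 (3.21 kb, fold enrichment 2.505 to 5.41, p scores 8.48 to 28.6) had no *enok*_KD peak, nor did a group of 4 at chr2L:22020804-22023820 (2.30 kb, 3.07 to 5.63, p scores 12.5 to 24.99). The single peak chr2L:21410314-21410549, at 8.61 in GFP_KD, was also without a partner. Cluster 141 went the other way, and cluster 62 did so only within the span of its bins. In that span, 2 peaks of each list covered 0.899 kb in the control and 1.66 kb upon knockdown, with fold enrichments of at most 4.79 and 6.13. With its flank, at chr2L:22258871-22272713, 5 GFP_KD peaks covered 1.69 kb and 2 *enok*_KD peaks 1.66 kb. In cluster 141, 2 GFP_KD peaks covering 1.03 kb faced 4 *enok*_KD peaks covering 2.16 kb at chr2L:21546568-21550143. The latter include chr2L:21546568-21547303, at 8.02 the fifth strongest *enok*_KD peak of the arm. Bins of cluster 141 had the same median occupancy in both groups, 0.53. Of its 18 bins, 4 rose (22.2%, against 17.5% over all bins) and 2 fell (11.1%, against 19.7%). Under the peaks, the bins from chr2L:21547001, 21548001 and 21549001 rose by 0.37, 0.69 and 0.81. Those from chr2L:21546001 and 21550001, also under peaks, stayed within counting error.

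Beyond this, Rhi peaks were more numerous, longer and stronger upon *enok* knockdown across clusters 23 and 31. Between chr2L:22364793 and 22548048, GFP_KD had 10 peaks over 3.74 kb (5.83% of its 2L length) and *enok*_KD had 27 peaks over 20.1 kb (36.6%). The larger part came from cluster 31 and its flank, chr2L:22484568-22548048, where 5 GFP_KD peaks covered 1.10 kb and 17 *enok*_KD peaks 14.8 kb. GFP_KD peaks there reached a fold enrichment of at most 3.97, and *enok*_KD peaks 12.1. The 3 strongest *enok*_KD peaks of the arm without a GFP_KD partner lie next to each other in this cluster, chr2L:22516085-22519195 (12.1 over 3111 bp, the strongest *enok*_KD peak of 2L), chr2L:22519443-22521225 (7.005) and chr2L:22527568-22527948 (6.61).

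Where GFP_KD peaks of these clusters had a partner, the *enok*_KD peak was the longer one. The 2 GFP_KD peaks chr2L:22508117-22508340 and chr2L:22510539-22510712 lay inside the 3472 bp *enok*_KD peak chr2L:22507919-22511390, and the second pair had fold enrichments of 2.95 and 5.60 (ratio 1.90). In cluster 23, GFP_KD peaks at 4.22 (chr2L:22402955-22403906) and 7.03 (the neighbour) were spanned by the 2611 bp *enok*_KD peak chr2L:22402988-22405598 at 10.1, and the first gave the highest ratio on the arm (2.39). The 5 pairs of the 2 clusters all had a higher value in *enok*_KD (median ratio 1.43, range 1.41 to 2.39). Since some pairs share an *enok*_KD peak, they are not separate measurements.

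Bins were higher along nearly the whole of cluster 31, which the tables class as Enok-unbound. Over its 35 bins, the median went from 0.38 in the control to 1.57 upon knockdown, a median change of 0.99 (0.81 to 1.24). Of the 35 bins, 34 were higher (46.3% over all tables) and 26 rose beyond counting error (74.3%, against 17.5% over all tables). The largest rises of the arm were all here. In the bin from chr2L:22519001 the IP was 35.7 RPM in GFP_KD and 133 in *enok*_KD (inputs 27.5 and 23.9, change 2.10, SE 0.17). In the bin from chr2L:22511001 it was 53.2 and 195 (inputs 54.0 and 47.7, change 2.05, SE 0.13), and in the bin from chr2L:22520001 31.2 and 97.4 (inputs 22.8 and 18.3, change 1.96, SE 0.19). The IP was near its input in GFP_KD in these bins and several times above it in *enok*_KD. The input itself was lower by 0.18 on the log2 scale over the cluster, and the IP alone changed by 0.91. In cluster 23 (31 bins) the change was 0.28 (−0.19 to 0.53), and the input was higher by 0.20 in *enok*_KD. There 11 bins rose (35.5%, against 17.5% over all tables) and 5 fell (16.1%, against 19.7%).

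**Figure D4:**
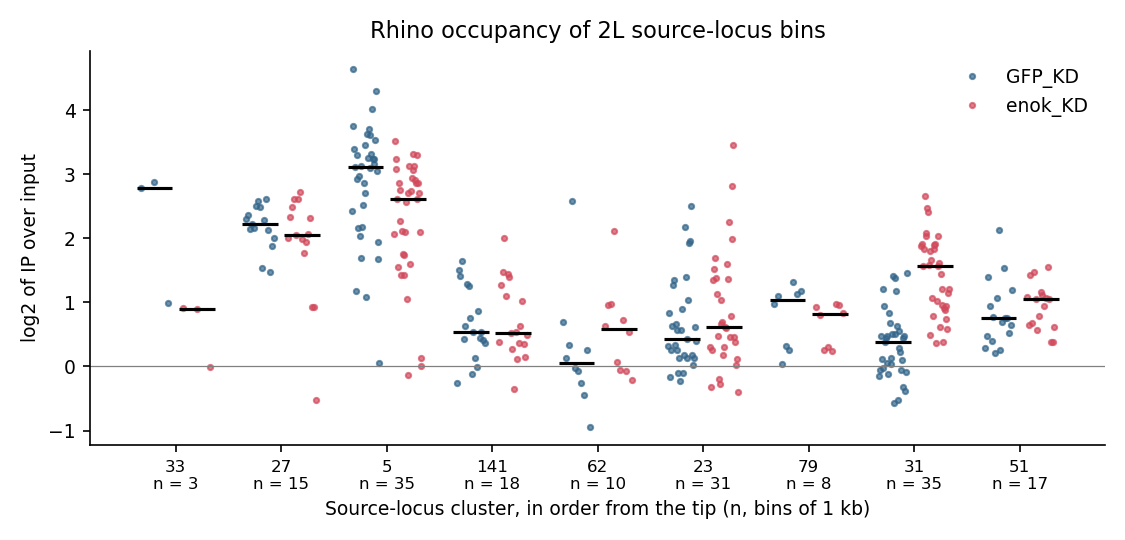
Rhi occupancy as log2 of IP over input (vertical axis) of each 1 kb bin in the 9 source-locus clusters of 2L, ordered from the tip (horizontal axis), in GFP_KD (blue) and *enok*_KD (red), with black lines at the medians. The medians of the control and the knockdown are 2.78 and 0.90 in cluster 33, 3.11 and 2.62 in cluster 5, and 0.38 and 1.57 in cluster 31.

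In the remaining clusters, the interval of the median change contained no change. In cluster 62 (10 bins) it was 0.33 (−0.07 to 0.83), in cluster 79 (8 bins) −0.11 (−0.35 to 0.21) and in cluster 51 (17 bins) 0.18 (−0.27 to 0.36). Of the cluster 62 bins, 3 rose (30%, against 17.5% over all tables) and none fell (19.7% over all tables). In cluster 51, 3 bins rose and 3 fell (17.6% each), and in cluster 79 no bin did either. Cluster 79 had no peak in either list. Over all 172 bins of the arm, median occupancies were 0.83 (GFP_KD) and 1.13 (*enok*_KD), with a median change of 0.07 (−0.03 to 0.25), against −0.08 (−0.12 to −0.04) over the 2191 bins of other chromosomes. Lower bins made up 45.3% on 2L (78 bins) and 53.7% over all tables. On the arm 32 bins fell (18.6%, against 19.7% over all tables) and 48 rose (27.9%, against 17.5%). The arm's median turned to −0.11 without cluster 31 and to 0.28 without cluster 5. By the tables' classes, the 84 Enok-bound bins changed by −0.19 (−0.32 to 0.04) and the 88 Enok-unbound bins by 0.35 (0.18 to 0.52). Both classes were mixed. Enok-bound cluster 5 changed by −0.44, and clusters 23 and 141 of that class by 0.28 and 0.04. The Enok-unbound bins hold clusters 33 and 31, which changed in opposite directions.

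Past cluster 31, peaks were many and weak. From chr2L:22661636 to the end, 19 GFP_KD peaks covered 4.27 kb and 12 *enok*_KD peaks 3.98 kb, with fold enrichments of at most 5.02 and 3.15. The last peak of the arm was chr2L:23011041-23011313 in GFP_KD (2.68) and chr2L:23010456-23010770 in *enok*_KD (1.87).

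Next, the positions were compared over the whole arm. Sharing at least 1 bp with the *enok*_KD list were 45 of the 121 GFP_KD peaks (37.2%, Wilson interval 29.1 to 46.1), where 49.1% did so over all chromosomes. In the other direction, 47 of 81 *enok*_KD peaks (58.0%, 47.2 to 68.2) overlapped a GFP_KD peak, where 63.9% did so overall. The GFP_KD share on 2L lay close to those of 2R (39.2%), X (38.2%) and 3R (32.3%) and below that of 3L (64.0%). The *enok*_KD share was the lowest of the 5 large arms, which otherwise ranged from 63.0% on 3R to 85.5% on X. The interval for 2L overlapped those of 3R (49.6 to 74.6), 2R (61.7 to 76.7) and 3L (61.8 to 80.8) and did not overlap that of X (75.9 to 91.7). These intervals describe counting error within 1 library and are no test between arms. Without the tip array, the GFP_KD share was 41.7%.

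The 76 GFP_KD peaks without a partner (50.9% of the list over all chromosomes) covered 25.7 kb, 40.1% of the GFP_KD length. Their median fold enrichment was 3.69, against 4.22 for the peaks with a partner, an order that turned when peaks within 1 kb counted as partners (ratio of with over without 1.14 and then 0.900). Their median length was 268 bp against 433 bp. The interquartile ranges of fold enrichment overlapped widely, 3.04 to 4.94 without and 2.97 to 6.34 with a partner. Of the 76, 55 had a p score of at least 10 and 23 of at least 20, while 39 of the 45 with a partner had at least 10. The median p score was 12.6 without and 20.4 with a partner. The *enok*_KD IP had the lower depth, and the part of depth in the missing peaks was not tested. The 34 *enok*_KD peaks without a partner (36.1% of the list over all chromosomes) covered 17.1 kb with a median fold enrichment of 3.26, against 3.80 for those with one.

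The median strength of the peaks as called was close in both lists. Median fold enrichment was 3.69 in GFP_KD (interval 3.48 to 3.97, range 1.81 to 13.1) and 3.67 in *enok*_KD (3.26 to 3.88, range 1.74 to 12.1). Over the 45 overlapping pairs, the median ratio of *enok*_KD to GFP_KD was 0.89, with 25 pairs lower (55.6%, against 44.9% over all chromosomes) and 20 higher. Cluster 5 contributed 9 of the 25 lower pairs. Summits of a pair were a median of 61 bp apart, and 33 of 45 lay within 100 bp of each other.

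**Figure D5:**
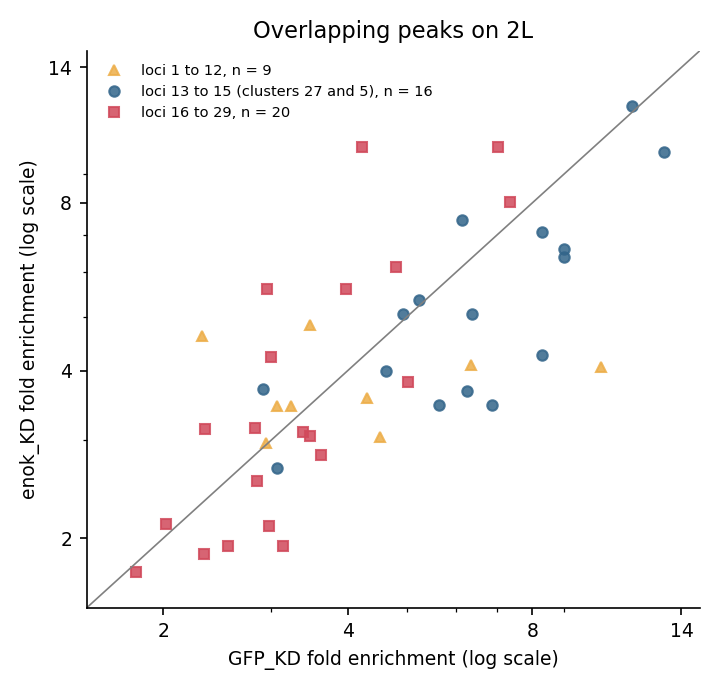
Fold enrichment in *enok*_KD (vertical axis, log scale) against GFP_KD (horizontal axis, log scale) for the 45 overlapping pairs on 2L, with the line of equal values. Triangles mark loci 1 to 12 (9 pairs), circles loci 13 to 15 around clusters 27 and 5 (16 pairs, 11 below the line) and squares loci 16 to 29 (20 pairs, 10 below the line).

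By their medians, peaks as called were longer and farther apart in *enok*_KD, and both orders turned once peaks within 1 kb were merged (ratio of lengths 1.21 and then 0.767, of gaps 2.11 and then 0.317). The median length of GFP_KD peaks was 297 bp (interval 255 to 338, interquartile range 220 to 489, range 158 to 5498) and 360 bp in *enok*_KD (330 to 435, interquartile range 272 to 517, range 189 to 5824). The same direction was seen on the other chromosomes, with 315 and 373 bp. Among peaks with a partner the order turned, with 433 bp against 405 bp in *enok*_KD. Peaks of at least 1 kb numbered 10 in GFP_KD and 11 in *enok*_KD and held 39.2% and 51.7% of the covered length. The gap to the next peak had a median of 868 bp in GFP_KD (569 to 1376, 120 gaps) and 1831 bp in *enok*_KD (1052 to 5261, 80 gaps). Gaps under 1 kb made up 53.3% in GFP_KD and 36.3% in *enok*_KD. Once peaks within 1 kb of each other were merged, 57 domains remained in GFP_KD and 52 in *enok*_KD, within 10 kb 33 and 26. The lists thus differed more in the number of peaks than in the number of places along the arm that held one.

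Finally, the peaks were set against the spans of the 9 source-locus clusters. Inside them lay 50 of 121 (41.3%, GFP_KD) and 50 of 81 (61.7%, *enok*_KD), covering 37.4 and 43.4 kb. Outside lay 71 GFP_KD peaks over 26.7 kb and 31 *enok*_KD peaks over 11.5 kb. By these spans, the lower number upon *enok* knockdown was found outside the clusters. Each span starts at the first bin of its cluster. Most peaks of the tip array and the 6 GFP_KD peaks just before cluster 5 therefore counted as outside. Within the spans, lower numbers in cluster 5 (26 and 15 peaks), cluster 27 (8 and 6) and cluster 33 (3 and 0) stood against higher ones in clusters 31 (4 and 14), 23 (4 and 9) and 141 (2 and 4). Outside the clusters, 21 of 71 peaks of the control (29.6%) and 20 of 31 of the knockdown (64.5%) overlapped a peak of the other list, against 49.1% and 63.9% over all chromosomes.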

How the data were processed

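ChIP-seq reads were single-end. Per the study's methods and the labels, the authors mapped them to UCSC dm3 with 0 mismatches and kept unique reads, so repeats that cannot be placed contribute no signal. The submitters' processing notes name Trimmomatic, Bowtie2 2.2.1 and MACS2, and the settings and control of MACS2 are not given in the sources used here. RNA polymerase II is named in the design text of the series, but Rhi in its title and antibody protocol, which were followed.

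The deposited peak lists give, per IP library, fold enrichment as a ratio and scores that the authors' caller gave as −log10, for the p-value and for the q-value. The deposited bin tables hold RPM, scaled to uniquely mapped reads, of 1 kb bins, divided by the authors by mappability. Positions are 1-based. No column was left unmapped (0).

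Depth was the scanned read number at which the largest count of the 600 lowest RPM values of each library became whole reads. In total, 40 to 51 of them were whole multiples within 0.01, against a median of 12 at other depths, so depths are rounded to 100000 reads. The counting SE takes mappability as 1, gives the lowest possible error, and so favours calls of fell or rose, made where the change exceeded its 95% counting interval. Shares carry Wilson intervals and medians order-statistic intervals. Zones were the first 1 Mb, the interior and from 20 Mb on. The rank test the study ran over bins was not used, because bins of 1 library are not replicates. No dm3 annotation was used, so peaks were assigned to no gene.

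Named peaks were, per list, the 5 strongest, the 3 longest, the 3 strongest without a partner, the first and the last, with the 3 highest and lowest pair ratios, the 3 widest gaps, the windows with most peaks or the largest differences, every cluster, and the 3 largest bin falls and rises at or above the arm's median occupancy (mean of both groups). Other stretches, loci and peaks were picked after their values were seen. The members and lists were chosen with earlier results of these data known. Alternatives concerned peak thresholds, overlap rules, merging, zone limits, pseudocount and low bins. The scripts were tested on simulated data (Python 3.11.15, numpy 2.4.6, pandas 2.3.3, scipy 1.17.1, matplotlib 3.10.9).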

Additional observations from a re-analysis of the deposited data

How the results depend on the processing

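Of 53 alternative values, 35 stayed within 1.5 times the main value or its interval with the same direction, 12 moved and 6 turned direction. The number of *enok*_KD peaks stayed below that of GFP_KD in all 6 alternatives (46.4% to 91.2%), with 91.2% once peaks within 1 kb were merged. Covered length was 46.3% for peaks before 20 Mb. The GFP_KD share with a partner was 22.3% for a reciprocal overlap of 50% and 51.2% within 1 kb. The *enok*_KD share was 33.3% for the reciprocal overlap and 46.9% with equal numbers of peaks by p score. The share in the proximal zone was 40.5% (GFP_KD) and 55.6% (*enok*_KD) from 21 Mb, 31.4% and 50.6% from 22 Mb, and 86.1% for GFP_KD without the first 10 kb. The ratio of median lengths turned to 0.935 among peaks with a partner and 0.767 after merging. The ratio of median gaps (2.11) was 1280 before 20 Mb, where *enok*_KD had 12 gaps, and turned to 0.317 after merging. The ratio of fold enrichment with over without a partner (1.14) turned to 0.900 when peaks within 1 kb counted as partners. The median bin change (0.07) turned to −0.13 for bins at or above the arm's median occupancy and to −0.11 without cluster 31, and was 0.28 without cluster 5. Causes were not tested. The settings without the first 10 kb, without clusters 31 or 5 and with p scores scaled by depth were chosen after seeing the data. No paired analysis was possible because the groups have 1 IP library apiece. Depth limits single bins, whose median counting SE on 2L was 0.30.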

Other observations

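The dm3 sequence chr2LHet, which continues the heterochromatin of this arm and is not counted above, held 7 peaks over 3.02 kb in GFP_KD and 20 peaks over 11.4 kb in *enok*_KD. All 7 GFP_KD peaks overlapped an *enok*_KD peak (49.1% over all chromosomes). In the reverse direction 5 of 20 did so (25%, Wilson 95% bounds 11.2 and 46.9, against 63.9% over all chromosomes). On 2L itself, the peaks from chr2L:22661636 to the end were fewer in *enok*_KD (19 and 12).

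The first 10 kb of other dm3 sequences were counted in the same way as the 2L tip. X held 6 GFP_KD and 4 *enok*_KD peaks there, 3R held 5 and none, chromosome 4 held 3 and 6, and 2R and 3L none in either list. On 2R, 3R and 4, low coordinates lie at the centromeric side and not at the tip.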
